A study of Mus musculus with 6 samples.

Results

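The nuclear-encoded genes of the respiratory chain and ATP synthase were followed in the lateral septum (LS) of female mice that ate olanzapine. They were taken by gene symbol: Nduf genes of the a, b, c, s and v series for complex I, Sdha to Sdhd for complex II, Uqcr genes for complex III, Cox4 to Cox8 genes for complex IV, and Atp5 genes for complex V. This gave 88 of the 35415 genes counted, with 41 in complex I, 4 in complex II, 8 in complex III, 18 in complex IV and 17 in complex V. The symbol rule itself uses no measured value. The study compared wild-type female C57BL/6 mice on chow with olanzapine, an antipsychotic drug, with separate mice of that sex and strain on plain control chow. Both groups were fed for 12 weeks, and the study's methods give an age of about 8 weeks on arrival. Micro-dissected LS tissue of 3 mice was combined into each RNA-seq library, so each group is represented by 3 pools and variation from mouse to mouse cannot be seen. Whether the pools share litters or cages is not stated, and the p-values measure only the spread between these pools.

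The respiratory chain sits in the inner mitochondrial membrane. Complex I takes electrons from NADH and complex II from succinate, complex III passes them on to cytochrome c, and complex IV hands them to oxygen. The pumping of protons by complexes I, III and IV drives complex V, the ATP synthase. Most of the subunits are encoded in the nucleus and imported, whereas a small set of core subunits is made from mitochondrial DNA, and neurons depend on this pathway for most of their ATP.

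Control pools held 39406866 to 39868872 counts on genes and olanzapine pools held 38208153 to 38767373. Of the LS neuron markers, 10 of 10 had counts in every pool. Their levels are given in FPKM (a level scaled to gene length and to the total counts of the library). They summed to 348 to 438 FPKM in the control pools and 278 to 386 FPKM in the olanzapine pools. The sum rests mainly on the more abundant of them, since their median level was 7.72 FPKM. Counts in every pool do not show how much of the tissue was LS. The pools also differed in markers of other tissues. Choroid plexus markers (10 of 10 with counts in every pool) summed to 45.6, 1896 and 5370 FPKM in control pools 1 to 3, against 803, 3457 and 28.8 FPKM in olanzapine pools 1 to 3. Hepatocyte markers (10 of 10) summed to 6.84 to 12.3 FPKM in the control pools and 119 to 155 FPKM in the olanzapine pools. The part that such tissue differences play in the results below was not tested.

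Promoters of these genes are shown first because many respiratory chain genes are known targets of nuclear respiratory factor 1 (NRF1), of the ETS-family factor GABP and of YY1, which bind next to the start of transcription. RefSeq promoters of the GRCm38.p6 build, 250 bases before to 50 bases after each start, were at hand for 70 of the 88 genes, and were searched on both strands for exact copies of GCGCATGCG (NRF1), CCGGAAGT (ETS) and AAGATGGCG (YY1). A gene was counted if any of its promoters matched. The NRF1 letters were found in 8 genes (11.4%, against 1.95% of all 27025 genes with a promoter). The ETS letters were found in 5 (7.14% against 4.31%) and the YY1 letters in 7 (10% against 1.64%). At least 1 of the 3 was present in 19 genes (27.1% against 7.48%). By complex these were 8 of 34 in complex I, 0 of 3 in complex II, 3 of 5 in complex III, 2 of 13 in complex IV and 6 of 15 in complex V. Among protein-coding genes alone, the shares were 2.61% for NRF1, 5.69% for ETS, 2.14% for YY1 and 9.85% for at least 1. The ETS share of 7.14% was thus near that of protein-coding genes. Where the NRF1 letters are followed by C they read the same on both strands, so that the copies found on the 2 strands overlap. A match is a run of letters and not evidence of binding.

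The stretches below, of 60 bases upstream of the start and written 5′ to 3′ on the strand of the gene, show each motif in place, with its letters in capitals. The first 4 hold the NRF1 letters in genes of complexes V, IV and I, and the next 2 the ETS letters (on the opposite strand in Atp5h). The last holds the YY1 letters in Atp5j, whose exons overlap those of Gabpa, the gene for a GABP subunit, on the other strand. Atp5j was the only gene with the YY1 letters before the start. In the other genes with the YY1 letters they began at positions 23 to 36 after the start.
Atp5k, chr5:108434410-108434469, minus strand: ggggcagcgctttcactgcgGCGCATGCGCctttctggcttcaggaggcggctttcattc
Atp5g2, chr15:102671050-102671109, minus strand: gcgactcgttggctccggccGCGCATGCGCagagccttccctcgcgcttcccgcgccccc
Cox6a1, chr5:115349081-115349140, minus strand: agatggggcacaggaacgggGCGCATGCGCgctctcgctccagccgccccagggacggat
Ndufa11, chr17:56717682-56717741, plus strand: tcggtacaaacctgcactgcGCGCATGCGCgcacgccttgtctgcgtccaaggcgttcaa
Atp5h, chr11:115419920-115419979, minus strand: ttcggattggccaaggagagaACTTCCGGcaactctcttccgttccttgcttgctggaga
Uqcr11, chr10:80406848-80406907, minus strand: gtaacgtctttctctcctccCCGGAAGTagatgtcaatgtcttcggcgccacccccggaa
Atp5j, chr16:84835025-84835084, minus strand: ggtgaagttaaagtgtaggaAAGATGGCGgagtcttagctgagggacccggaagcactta

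The genes are scattered over the genome. GENCODE M21 lists 84 of the 88, on 19 chromosomes, 82 of them as protein coding. Exons of 28 overlap exons of another gene, 25 of them on the opposite strand. The strand setting of the counting is not given in the sources used here, so reads of such partners, for example Cox4i1 with Emc8 or Ndufb6 with Smim27, cannot be told apart.

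Levels were compared per length, in FPKM. The genes fell into an abundant and a rare set with a gap between them: 77 averaged 28.3 to 740 FPKM over the 6 pools, and 11 averaged at most 7.14 FPKM. Cox4i1, a core-associated subunit of complex IV, had the highest level, with 681, 702 and 777 FPKM in control pools 1 to 3, against 704, 808 and 768 FPKM in olanzapine pools 1 to 3. Atp5b, the catalytic β subunit of ATP synthase, came next, with 574, 573 and 593 FPKM in the control pools and 591, 626 and 617 FPKM in the olanzapine pools. The pools of these genes did not overlap, so their order held in each pool. Cox8a averaged 477 FPKM, Cox6a1 430 FPKM, Cox6b1 416 FPKM, Atp5a1 (the α subunit) 390 FPKM and Cox5b 388 FPKM. Cox6a1 (381 to 461 FPKM) and Cox6b1 (369 to 493 FPKM) overlapped across pools, so their order is not resolved.

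Among abundant genes the median level was 277 FPKM for the 11 genes of complex IV, 175 FPKM for the 17 of complex V, 137 FPKM for the 8 of complex III, 93.4 FPKM for the 4 of complex II and 88.6 FPKM for the 37 of complex I. Levels within a complex differed widely although its subunits occur in fixed numbers: the highest abundant gene exceeded the lowest 11.3-fold in complex I, 2.69-fold in complex II, 3.97-fold in complex III, 21.6-fold in complex IV and 21.1-fold in complex V. In complex I the highest were Ndufa4 (362 FPKM), Ndufb10 (241 FPKM) and Ndufa3 (215 FPKM), and in complex III Uqcrh (284 FPKM), the hinge protein of the cytochrome c site. Ndufa4, whose level sets the 11.3-fold range of complex I, is grouped here by its symbol, although its protein is now placed in complex IV. The lowest abundant gene was Atp5j (28.3 FPKM). Its FPKM rests on a length of 4137 bases, the longest among the members, where the median was 750 bases. The lowest abundant genes of complexes I and IV, Ndufa11 (32.1 FPKM) and Cox5a (34.2 FPKM), rest on 2661 and 3153 bases. Cox5a averaged 4207 counts, close to the 4242 of Cox7c, which reached 242 FPKM on 449 bases. The fold ranges of complexes I, IV and V thus depend on these lengths.

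**Figure D1:**
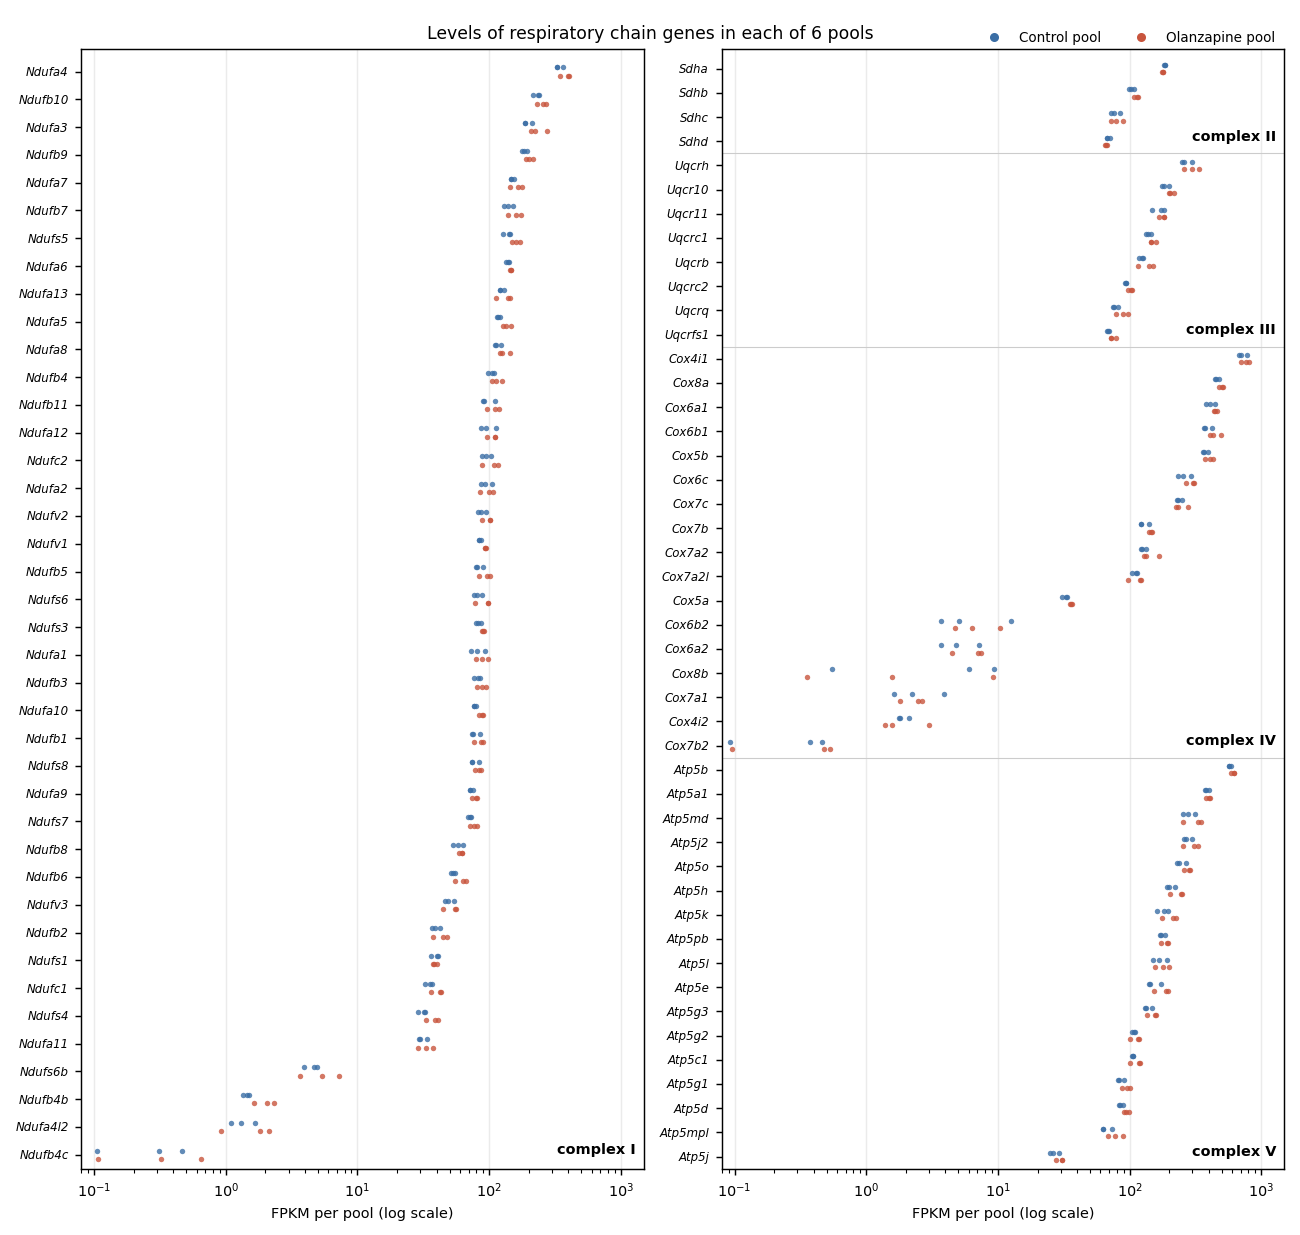
FPKM of the genes in each pool on a log axis, complex I on the left and complexes II to V on the right, with control pools in blue just above olanzapine pools in red. The 77 abundant genes lie at 28.3 FPKM or higher on average and the points of their 2 groups lie close together, while the rare isoforms, which average below 10 FPKM, scatter widely. Cox8c is not drawn because it had no count in any pool, and 1 other gene is not shown.

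Several subunits exist as a common isoform and a second one that is known from other tissues or states. The common isoform carried nearly the whole FPKM of each pair in every pool. Cox4i1 made up 99.63% to 99.82% of the pair with Cox4i2, the isoform known from lung and low oxygen. Cox6a1 made up 98.3% to 99.04% against Cox6a2, Cox7a2 97.13% to 98.71% against Cox7a1, and Cox8a 98.08% to 99.93% against Cox8b, the latter 3 being isoforms of heart and skeletal muscle. Cox6b1 made up 97.15% to 99% against Cox6b2, a testis isoform, and Ndufa4 99.47% to 99.77% against Ndufa4l2, a gene known to respond to low oxygen. Ndufs6 made up 91.47% to 96.39% against Ndufs6b, which GENCODE M21 lists as a processed pseudogene, as it does Ndufb4c. Reads counted for such a copy may come from the parent gene. Pairs with near-identical sequence, such as Ndufb4 (98.1% to 98.78%) and Ndufb4b, are uncertain, because the counting may have lost or divided reads that match both copies.

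The rotating c-ring of ATP synthase is made of 1 protein that 3 genes encode with different import signals. Atp5g3 gave 41.1% to 42.9% of their summed FPKM, Atp5g2 31.2% to 33.3% and Atp5g1 25.6% to 27%. The 3 shares did not overlap in any of the 6 pools, and control and olanzapine pools overlapped for each gene.

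Among the rare isoforms, Cox8b differed most between pools of 1 group. Its level was 0.553, 6.03 and 9.30 FPKM in control pools 1 to 3, against 1.58, 9.16 and 0.355 FPKM in olanzapine pools 1 to 3. This is the same order of pools as that of the summed choroid plexus markers given above, from olanzapine pool 3 as the lowest to control pool 3 as the highest, and the part of that tissue in the level of Cox8b was not tested. Cox8b was singled out after its values had been seen. Cox6b2 had 3.73, 5.10 and 12.5 FPKM in the control pools and 4.72, 10.4 and 6.38 FPKM in the olanzapine pools, which overlapped. Cox8c, a testis isoform, had 0 counts in all 6 pools. Together with Ndufb4c (2 to 12 counts per pool) and Cox7b2 (2 to 11 counts) it was too low to test, which left 85 genes.

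The main comparison asked whether the RNA of these genes differed between olanzapine and control pools. Most lay slightly higher in the olanzapine pools, but no gene passed the test. Of the 85 tested, 79 had a fitted log2 fold change above 0 and 6 had one below 0, against 50.7% above 0 among all 17255 genes tested. The median log2 fold change was 0.10, a 7.3% higher level, with quartiles of 0.064 and 0.15, against a median of 0.0039 over all genes. In the quasi-likelihood F test of edgeR, with Benjamini-Hochberg adjustment over all genes, 0 of the 85 were called at an adjusted p under 0.05 (background 2.32% of all genes), and so 0 with the fold limit of 2 that the study used (background 1.01%). DESeq2, which called 6.69% of all genes, and limma on log2(FPKM + 1), which called 1.94%, also called 0 of these genes. At an unadjusted p under 0.05 there were 5 genes, all higher and all in complex I, a share of 5.88% against 17.6% of all genes in either direction and 9.19% in the higher direction. At this threshold DESeq2 gave 4 genes (4.71%, against 17.8% of all genes in that fit) and limma 12 (13.8% against 17.2%). The count depended on single pools. It was 0 without control pool 1 (all genes 13.4%) or olanzapine pool 3 (15.7%), 1 without control pool 2 (1.16% against 13.2%) and 2 without olanzapine pool 2 (2.35% against 16.2%). It was 15 without control pool 3 (17.4% against 15.2%) and 20 without olanzapine pool 1 (23.3% against 18.8%).

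A separation of the 3 olanzapine pools from the 3 control pools was seen in 17 of the 85 genes with the olanzapine pools above (20%, background 13.3%) and in 2, Sdha and Sdhd, with the olanzapine pools below (2.35%, background 11%). An exact permutation test of 3 against 3 pools cannot give a p under 0.1. For the 77 abundant genes the fitted log2 fold changes ran from -0.075 to 0.25 with standard errors of 0.060 to 0.12 (median 0.078, against 0.14 over all genes tested), and the 95% intervals of 76 of them lay within 0.5 of 0. Of the 85 tested genes, 20 had an interval within 0.25 of 0, so that differences of the size seen here are not resolved for single genes. All 77 averaged at least 1026 counts, and their median coefficient of variation within groups was 6.21%, against 7.1% for the 7151 tested genes with at least as many counts. In bulk tissue, fewer cells of a type and less RNA per cell cannot be told apart.

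**Figure D2:**
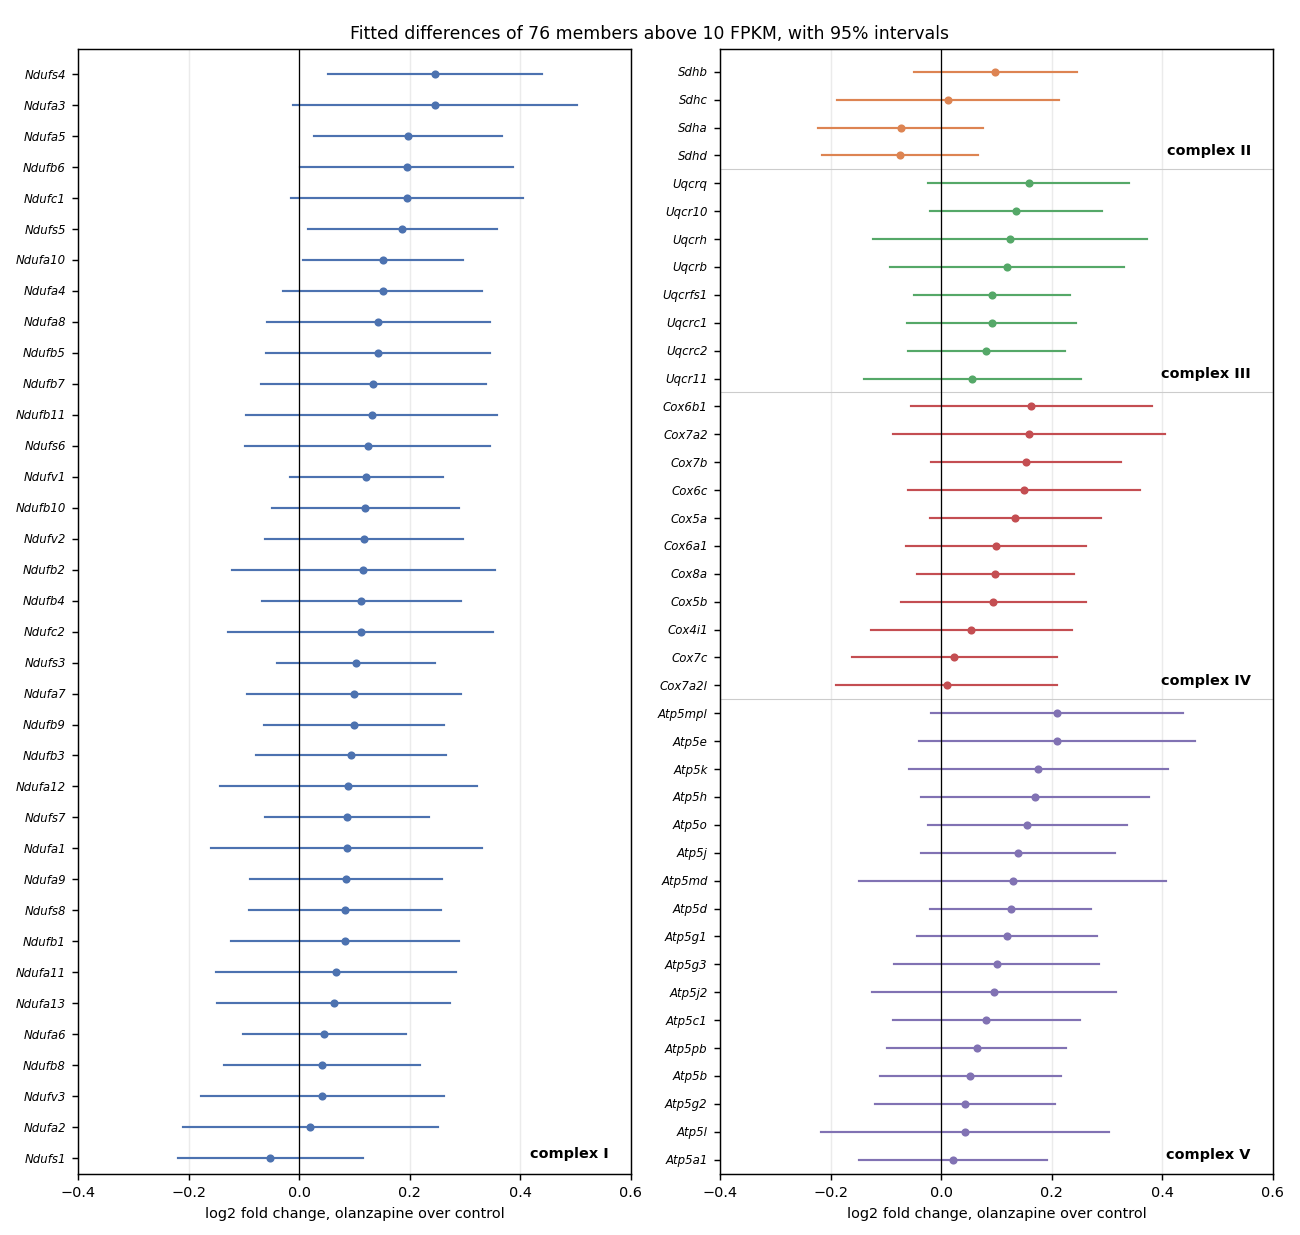
Fitted log2 fold change of 76 of the 77 abundant genes, olanzapine over control (points), with 95% intervals (lines), complex I on the left and complexes II to V on the right. Of the points, 73 lie above 0 and 3 below (Sdha, Sdhd and Ndufs1), and the intervals of 5 genes of complex I lie wholly above 0 before adjustment.

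In complex I, 39 of 40 tested genes had a fitted value above 0 (97.5%, background 50.7%) and 9 had all olanzapine pools above all control pools (22.5%, background 13.3%). The median log2 fold change was 0.11, and 0.073 without olanzapine pool 3 or 0.040 with a correction for gene length. The largest difference among abundant genes was in Ndufs4, an accessory subunit of the peripheral arm whose loss causes a Leigh-like encephalopathy in mice. Its normalized level was 45.3, 49.4 and 49.7 CPM (counts scaled to the size of the library) in the control pools and 51.6, 60.2 and 59.4 CPM in the olanzapine pools. The groups did not overlap, but the lowest olanzapine pool lay close to the highest control pool. The log2 fold change was 0.25 (95% interval 0.052 to 0.44), with an unadjusted p of 0.0189 and an adjusted p of 0.183 in edgeR (Benjamini-Hochberg adjusted).

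Ndufa5, an accessory subunit of the matrix arm, had 66.0, 64.2 and 67.4 CPM in the control pools and 72.4, 72.1 and 82.0 CPM in the olanzapine pools (log2 fold change 0.20, 95% interval 0.027 to 0.37). Ndufa10, an accessory subunit with a nucleoside kinase fold, had 138.9, 137.1 and 143.1 CPM in the control pools and 160.5, 154.4 and 150.4 CPM in the olanzapine pools (0.15, 95% interval 0.0063 to 0.30). Both were higher in each olanzapine pool than in any control pool. Ndufs5, on the intermembrane side, had 65.6, 72.5 and 73.6 CPM against 76.3, 83.7 and 80.9 CPM (0.19, 95% interval 0.015 to 0.36). Ndufb6, of the membrane arm, had 34.7, 35.0 and 36.5 CPM against 37.0, 40.4 and 44.1 CPM (0.19, 95% interval 0.0018 to 0.39). For these 4 genes the adjusted p was 0.218 to 0.280 in edgeR (Benjamini-Hochberg adjusted). Ndufa3 was as far apart as Ndufs4 (0.25), but its 95% interval ran from -0.011 to 0.50, and olanzapine pool 3 (95.9 CPM) stood above the other 5 pools (65.8 to 75.3 CPM).

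The 7 catalytic core subunits, which carry the flavin and the iron-sulfur clusters, and the 33 tested accessory genes had similar medians, 0.10 and 0.12. In the core, 6 of 7 lay above 0, and Ndufv1 and Ndufs3 were among those with separate groups. Ndufv1, the subunit that binds NADH, had 137.6, 134.5 and 140.4 CPM in the control pools and 151.5, 147.9 and 149.3 CPM in the olanzapine pools. All olanzapine pools were higher, by 0.12 on the log2 scale, with a 95% interval of -0.017 to 0.26. Ndufs1, the largest iron-sulfur subunit, was the exception, with 153.3, 133.7 and 146.9 CPM against 141.5, 141.1 and 135.8 CPM. Its groups overlapped, and the fitted log2 fold change was -0.053 (95% interval -0.22 to 0.11).

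Complex II, which is also an enzyme of the TCA cycle and has no mitochondrially encoded subunit, had a median log2 fold change of -0.031. Sdha, the flavoprotein that oxidizes succinate, had 541.5, 522.9 and 533.7 CPM in control pools 1 to 3, against 509.9, 499.1 and 509.6 CPM in olanzapine pools 1 to 3. Every olanzapine pool was below every control pool, and the fitted log2 fold change was -0.074 (95% interval -0.22 to 0.076). Sdhd, a membrane anchor that binds heme and ubiquinone with Sdhc, had 88.7, 87.6 and 91.0 CPM against 84.8, 82.5 and 86.4 CPM. Here too the groups did not overlap, at -0.075 (95% interval -0.22 to 0.066). Sdhb, the iron-sulfur subunit, ran the other way, with 109.4, 110.6 and 117.1 CPM against 118.4, 118.5 and 124.0 CPM, all olanzapine pools being higher by 0.098 (95% interval -0.050 to 0.25). Sdhc (94.97, 100.02 and 110.2 CPM against 94.8, 111.1 and 101.9 CPM) overlapped. None of the 4 passed the test, with adjusted p-values of 0.472 to 0.958 in edgeR (Benjamini-Hochberg adjusted). The median of complex II turned to 0.015 without control pool 3, ran from -0.054 to -0.0062 without 1 of the other pools and was -0.074 with the length correction. The difference between complex II and the other complexes was not tested.

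In complex III all 8 genes had a fitted value above 0, with a median of 0.11 (0.037 with the length correction). Uqcr10, a small supernumerary subunit, had 89.3, 92.04 and 98.8 CPM in the control pools and 100.9, 105.3 and 101.5 CPM in the olanzapine pools. Uqcrc2, one of the core proteins, had 181.2, 175.2 and 177.7 CPM against 185.3, 185.3 and 194.5 CPM. Uqcrfs1, the Rieske iron-sulfur protein, had 90.8, 92.3 and 89.5 CPM against 95.8, 99.8 and 94.9 CPM. In these 3 genes (37.5%, background 13.3%) the groups were separate, with log2 fold changes of 0.14, 0.081 and 0.092, and in the other 5 they overlapped. The smallest adjusted p in complex III was 0.342 (edgeR, Benjamini-Hochberg adjusted).

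In complex IV 13 of 16 tested genes lay above 0 and the median was 0.096. It was 0.060 without control pool 1, 0.16 without control pool 3 and 0.015 with the length correction. The 11 abundant genes all had positive fitted values, from 0.0095 in Cox7a2l, a factor that joins complexes into supercomplexes, to 0.16 in Cox6b1. The 3 negative values belonged to the rare isoforms Cox8b, Cox7a1 and Cox6b2. Cox5a had 106.6, 96.6 and 105.1 CPM in the control pools and 115.0, 112.3 and 111.1 CPM in the olanzapine pools, and Cox8a had 251.3, 243.6 and 259.0 CPM against 264.4, 269.7 and 272.7 CPM. Among the tested genes of complex IV these 2 had separate groups (log2 fold changes 0.13 and 0.098), a share of 12.5% that is near the background of 13.3%. Cox4i1 overlapped, with 530.3, 539.1 and 594.1 CPM against 545.3, 596.8 and 585.4 CPM.

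In complex V all 17 genes had fitted values above 0, with a median of 0.12. The median was 0.064 without olanzapine pool 3 and 0.039 with the length correction, and Atp5a1, Atp5g2 and Atp5l had values below 0 in some alternatives (lowest -0.011, -0.037 and -0.054). The groups were separate in 2 genes, both of the F1 head, which at 11.8% is no more than the background of 13.3%. Atp5b had 1099.5, 1082.8 and 1115.5 CPM in the control pools and 1127.0, 1136.8 and 1156.2 CPM in the olanzapine pools, a log2 fold change of 0.052 (95% interval -0.11 to 0.22). Atp5d, the δ subunit of the central stalk, had 178.6, 178.8 and 188.6 CPM against 200.3, 202.9 and 192.6 CPM (0.13, 95% interval -0.020 to 0.27). By part of the enzyme, the median was 0.081 for the 5 genes of the F1 head, 0.10 for the 3 of the c-ring, 0.15 for the 4 of the peripheral stalk and 0.13 for the 5 of the remaining membrane part.

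The small shared difference between the groups was close in size to a shared difference between pools of the same group. Relative to the mean of the 6 pools, the median log2 level of the 77 abundant genes was -0.090, -0.088 and 0.026 in control pools 1 to 3, against -0.032, 0.072 and 0.11 in olanzapine pools 1 to 3. Control pool 3 thus lay above olanzapine pool 1. Control pool 3 was the highest control pool in 68 of the 77 genes, and olanzapine pool 1 was the lowest olanzapine pool in 58. The difference of the group means was 0.099, against a spread within groups of 0.069 (SD, n = 3 pools per group). Over all members tested in each fit, the median log2 fold change was 0.16 without control pool 3 (86 genes) and 0.072 without olanzapine pool 3 (85 genes). As a share of all counts, the 88 genes took 1.08%, 1.09% and 1.18% in control pools 1 to 3, against 1.12%, 1.24% and 1.24% in olanzapine pools 1 to 3, so the groups overlapped.

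**Figure D3:**
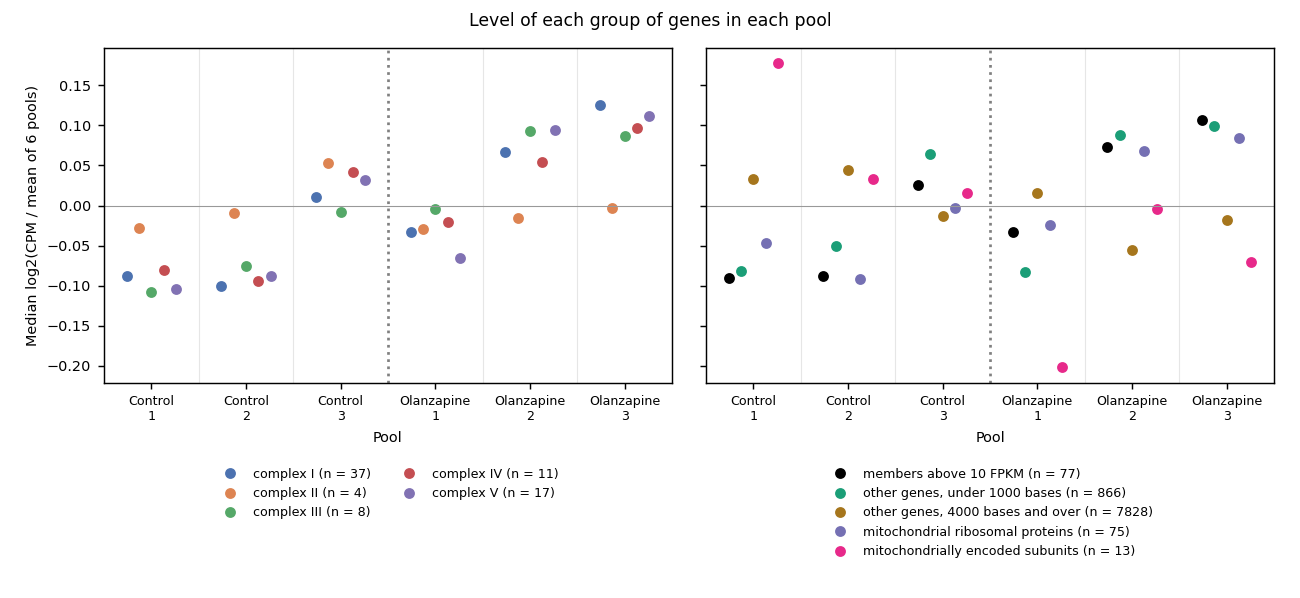
Median log2 level of each group of genes in each pool, relative to each gene's mean over the 6 pools, with the 5 complexes (abundant genes) on the left and other groups of genes on the right. Control pool 3 lies above olanzapine pool 1 for the 77 abundant genes together (0.026 against -0.032), and other short genes have a like pattern over the pools.

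Length of the gene moved with these values. Over the 77 abundant genes the log2 fold change was lower in longer genes (Spearman's rho -0.32, Pearson's r -0.36 with log2 length, n = 77 genes that share the same 6 libraries). Genes outside the respiratory chain were also lower from 2000 bases on: their median log2 fold change was 0.059 in the class under 1000 bases, 0.063 from 1000 to 2000 bases, 0.019 from 2000 to 4000 bases and -0.042 from 4000 bases. Members had medians of 0.12, 0.088 and 0.054 in the first 3 of these classes (51, 25 and 8 genes). When a curve on gene length was removed from each library, the median of the 85 genes became 0.035, with 65 above 0 and 20 below. Level showed no such relation (rho 0.040, n = 77). Why the libraries differ by gene length was not tested. The median was 0.11 in the 28 tested genes whose exons overlap another gene and 0.099 in the 53 without such an overlap, and the part of overlapping reads was not tested.

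**Figure D4:**
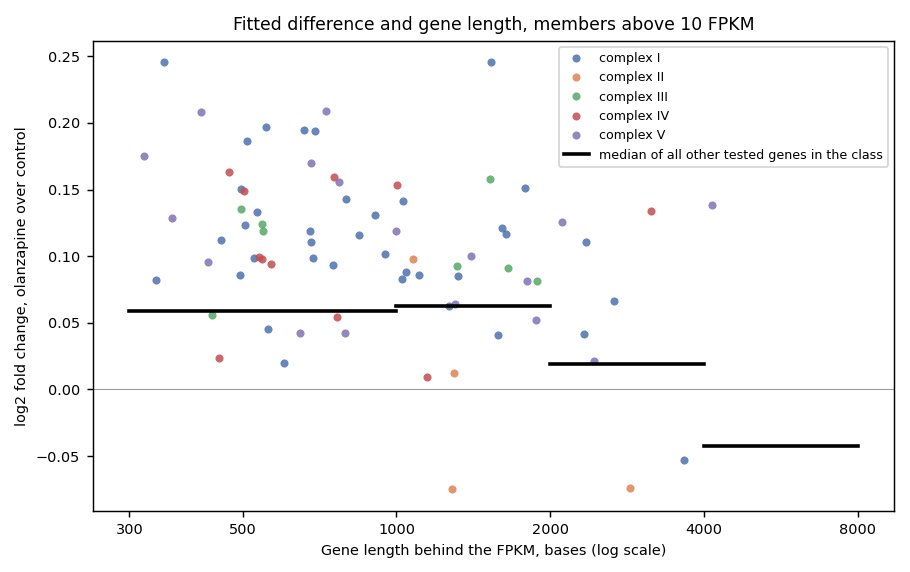
Log2 fold change of the 77 abundant genes against the length behind their FPKM (log axis), coloured by complex, with black bars for the median of all other tested genes in each length class (the last bar holds all genes from 4000 bases). The black bars lie at 0.059, 0.063, 0.019 and -0.042 from the shortest to the longest class, and most members lie above the bar of their class.

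The 13 subunits encoded by mitochondrial DNA, which join the proteins above in complexes I, III, IV and V, mostly had fitted values below 0. Of these, 11 had a fitted value below 0 and 2 above, with a median log2 fold change of -0.21 (-0.12 without control pool 1), and 4 had all olanzapine pools below all control pools (30.8%, background 11%). In edgeR, after Benjamini-Hochberg adjustment, 0 of 13 were called, 4 had an unadjusted p under 0.05, 1 higher and 3 lower (30.8%, background 17.6%), and DESeq2, which called 6.69% of all genes, called 2 of the 13, ND5 and COX2, both lower. ND5 of complex I had 7976, 6791 and 6462 CPM in control pools 1 to 3, against 5136, 5556 and 5115 CPM in olanzapine pools 1 to 3, a log2 fold change of -0.43 (95% interval -0.68 to -0.17, edgeR adjusted p = 0.105). COX1 had 22800, 21065 and 21396 CPM against 19897, 19515 and 17888 CPM (-0.19, 95% interval -0.44 to 0.065). CYTB had 13448, 12076 and 12345 CPM against 10760, 11859 and 11051 CPM (-0.17, 95% interval -0.41 to 0.072). In all 3 the groups were separate. ND3 was higher (0.47, edgeR adjusted p = 0.196), with overlapping groups. COX2, COX3, ATP6 and ATP8 had far fewer counts than COX1, and mitochondrial genes have near-identical copies in the nuclear genome, so their counts are uncertain. COX1, CYTB, ND1, ND2, ND4 and ND5 held 99.07% to 99.42% of the counts of the 13.

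Set against each other, the mitochondrially encoded subunits had 6, 5.39 and 5.10 counts per count of the 88 nuclear genes in control pools 1 to 3, against 4.68, 4.73 and 4.25 in olanzapine pools 1 to 3. The groups did not overlap in this ratio. Both of its parts moved with the pools, and each part alone overlapped between the groups. The mitochondrial subunits took 5.86% to 6.49% of all counts in the control pools and 5.25% to 5.87% in the olanzapine pools. The 88 nuclear genes took 1.08% to 1.18% in the control pools and 1.12% to 1.24% in the olanzapine pools. The ratio was not tested, and no background of like ratios stands beside it.

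Other genes of the pathway were taken by list. Of 45 tested assembly factors for complexes I to V, 30 lay above 0 and 15 below (median 0.055), with medians of 0.11 for the 14 of complex I, 0.019 for the 4 of complex II, 0.10 for the 6 of complex III, 0.036 for the 17 of complex IV and 0.083 for the 4 of complex V. Ndufab1, Cyc1 and Cycs, which the symbol rule does not cover although they serve the chain as acyl carrier, cytochrome c1 and cytochrome c, all lay above 0 (0.024, 0.075 and 0.059). Of 13 TCA cycle genes 10 lay above 0 (median 0.027), and of 16 glycolysis genes 14 (median 0.12). Mitochondrial ribosomal proteins (median length 1573 bases) had 63 of 75 above 0 and a median of 0.11. Cytosolic ribosomal proteins, whose median length of 827 bases is closer to that of the respiratory chain genes (750 bases), had 58 of 79 above 0 and a median of 0.035. Some of these medians depended on single pools. Without olanzapine pool 1 they were 0.10 for the assembly factors, 0.072 for glycolysis and 0.12 for the cytosolic ribosomal proteins, beside 0.14 for the respiratory chain genes. Without control pool 1, control pool 3 and olanzapine pool 3 in turn they were 0.048, 0.046 and 0.011 for the TCA cycle and -0.0096, 0.094 and -0.028 for the cytosolic ribosomal proteins, which were at 0.0068 without olanzapine pool 2. The assembly factors were at 0.090 without control pool 3 and 0.036 without olanzapine pool 3. With the length correction the medians were 0.029 for assembly factors, -0.0014 for the TCA cycle, 0.079 for glycolysis, 0.045 for mitochondrial and -0.041 for cytosolic ribosomal proteins. The share with all olanzapine pools above all control pools (background 13.3%) was 20% for assembly factors, 23.1% for the TCA cycle and 43.8% for glycolysis. It was 25.3% for mitochondrial and 0% for cytosolic ribosomal proteins, and 42.9% for the assembly factors of complex I alone. No gene of these lists was called in edgeR (Benjamini-Hochberg adjusted). At an unadjusted p under 0.05 there were 6 assembly factors (13.3%), 0 of the 3 carriers and 1 TCA cycle gene (7.69%). There were 2 glycolysis genes (12.5%), 6 mitochondrial (8%) and 0 cytosolic ribosomal proteins, and the share of each list was below the background of 17.6%. By complex, the assembly factors of complex I had 4 of 14 (28.6%, all higher) and those of complex V 1 of 4 (25%). Those of complex IV had 1 of 17 (5.88%) and those of complexes II and III 0.

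The 12 regulators of mitochondrial genes were divided, 6 above and 6 below 0 (median 0.0048), with 0 called in edgeR and 2 at an unadjusted p under 0.05 (16.7%, background 17.6%). Ppargc1a, the coactivator PGC-1α, had 49.4, 44.5 and 41.6 CPM in the control pools and 42.1, 36.9 and 36.3 CPM in the olanzapine pools. The groups overlapped slightly, and the log2 fold change was -0.23 (95% interval -0.45 to -0.018). Its relative Pprc1 had 23.7, 24.2 and 22.4 CPM against 27.8, 25.1 and 28.2 CPM, with all olanzapine pools higher (0.21, 95% interval 0.015 to 0.40). For both the adjusted p was 0.246 to 0.248 in edgeR (Benjamini-Hochberg adjusted). Nrf1, whose motif was searched above, was at 0.13 (95% interval -0.12 to 0.38), Gabpa at -0.064 (-0.23 to 0.10) and Tfam, the packaging and transcription factor of mitochondrial DNA, at -0.079 (-0.25 to 0.088).

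**Figure D5:**
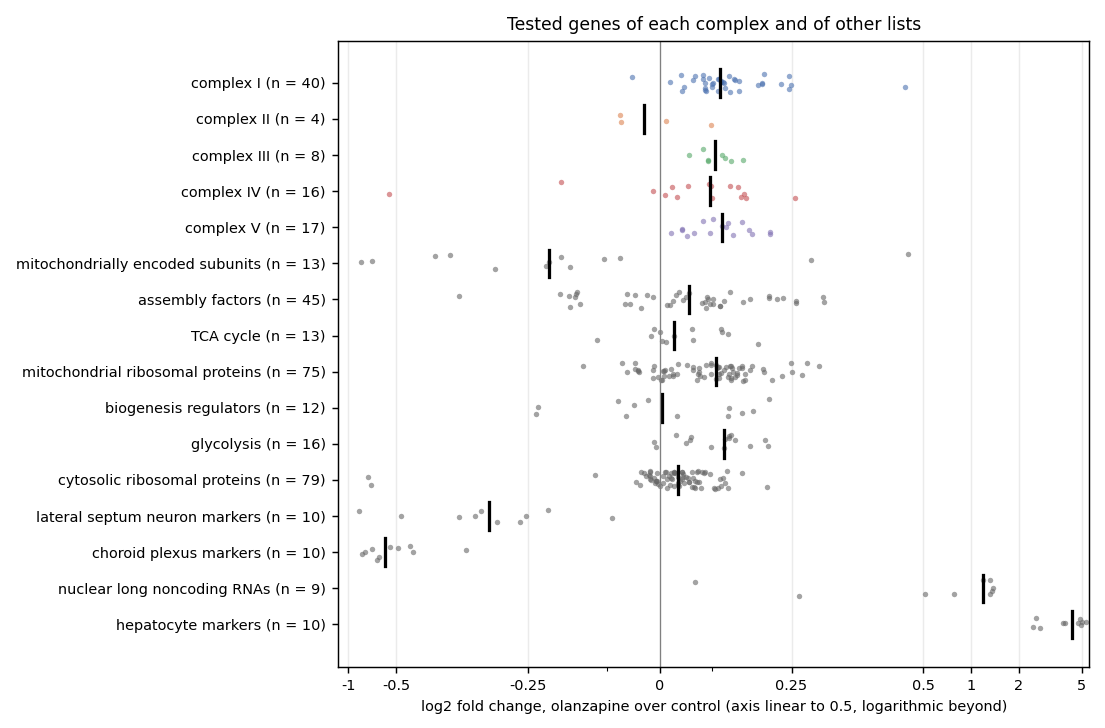
Log2 fold change of each tested gene (points) and the median (black bar) for the 5 complexes and for other lists, on an axis that is linear to 0.5 and logarithmic beyond. The abundant genes of the complexes lie between -0.075 and 0.25, the mitochondrially encoded subunits have a median of -0.21, and hepatocyte markers have a median of 4.32.

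Some markers of cell types and RNA classes differed far more than the respiratory chain genes. All 10 hepatocyte markers and 6 of 9 nuclear long noncoding RNAs were called higher in the olanzapine pools (medians 4.32 and 1.19, edgeR, Benjamini-Hochberg adjusted, background 2.32%). None of the following markers was called, and the numbers at an unadjusted p under 0.05 (background 17.6%) are given in brackets. The median was -0.32 for 10 LS neuron markers (3), -0.59 for 10 choroid plexus markers (0), -0.63 for 7 ependyma markers (2), -0.43 for 5 endothelium markers (1) and -0.22 for 6 astrocyte markers (3). It was 0.029 for 7 general neuron markers (0), -0.0060 for 6 oligodendrocyte markers (0), 0.024 for 5 microglia markers (2), 0.11 for 5 blood markers (0) and 0.025 for 4 muscle markers (0). The part of these differences in the values of the respiratory chain genes was not tested.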

How the data were processed

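LS tissue of 3 control and 3 olanzapine pools was sequenced. The authors deposited raw counts and FPKM of 35415 genes. The submitters' processing notes name fastp, HISAT2, HTSeq and the mm10 build; their versions, the strand setting and the handling of reads with several matches are not given in the sources used here. The deposited FPKM equalled count divided by total counts and a fixed length per gene, within 1% for 100% of genes, and this gave the lengths.

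Counts of all genes were tested with edgeR 4.0.16 (R 4.3.3) by the quasi-likelihood F test, with TMM scaling, filterByExpr (10 counts, 15 in total) and group as the only term; 17255 genes were tested, with Benjamini-Hochberg adjustment and a threshold of 0.05. The standard error is the log2 fold change over the square root of F, and the 95% interval follows from it. The CPM printed are scaled by TMM. Lists are described by counts and medians. The fit was checked on simulated counts with 200 changed genes. These changes were far larger than the differences seen in the members, and all genes had the same spread. The check therefore does not show how the fit does at differences of this size.

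The alternatives were DESeq2 1.42.0, RLE, upper-quartile and unscaled totals, tests without a count filter or from a mean of 50 counts, offsets for length and for GC content (lowess, span 0.3; GC known for 92.7% of tested genes), the replicate number as a block, limma 3.58.1 on log2 FPKM with 1 or 0.1 added (genes from a mean of 0.1 FPKM, or all genes), the unadjusted p, and leaving out each pool.

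The members and lists were chosen with earlier results of these data known. Genes named are the 3 with the highest FPKM per complex, the 5 with the largest rise and fall from a mean of 50 counts, called genes, isoform pairs, Sdha to Sdhd, untested members, and genes of the mitochondrial and regulator lists. Other members were named after their values were seen. These are the 4 besides Ndufs4 with an unadjusted p under 0.05, those whose groups did not overlap, Cox5b, Cox7c, Ndufa11, Atp5j and Atp5l. The level of 10 FPKM that parts abundant from rare genes, the length classes, the parts of complexes I and V, the motifs and the promoters shown were chosen after seeing the data, as was the spelling of mitochondrial gene symbols. The result of 1 single gene is not reported here.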

Additional observations from a re-analysis of the deposited data

How the results depend on the processing

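In each of 18 alternative fits 0 of the respiratory chain genes were called. With an unadjusted p there were 5 in the reported fit (5.88%, against 17.6% of all genes) and 0 to 20 in the alternatives. The median log2 fold change of all members stayed between 0.035 (length offset) and 0.16 (without control pool 3), and 65 of 85 members kept their sign throughout. Members fitted below 0 numbered 20 with the length offset and 4 to 12 when 1 pool was left out. The length offset gave medians of 0.040, -0.074, 0.037, 0.015 and 0.039 for complexes I to V and -0.28 for the mitochondrially encoded subunits, and leaving out 1 pool gave -0.054 to 0.015 for complex II. The GC offset gave 0.041 for complex IV, and the GC offset, library totals and the fits on log2 FPKM gave -0.0078 to -0.0047 for complex II. Why length matters was not tested. Over all genes, 401 calls became 1154 with DESeq2, 140 with the replicate block and 131 to 508 without 1 pool; with the fold limit, 174 became 60 to 297. In the fit with the replicate block the median of the members was 0.11 with 79 above 0, and the call of no named gene changed. Pools with the same number did not deviate together (r = 0.083, 0.041 and -0.37 over 14279 genes), so the numbers were taken as names. Of 1011 values of named genes, 964 kept their sign and 47, in 17 genes, did not; the cause was not tested. The GC offset turned Uqcr11 to -0.0026, Cox4i2 to -0.0067, Atp5g2 to -0.033, Ppargc1b to -0.015 and Tfb2m to 0.012. The length offset turned Sdhc to -0.050, Uqcr11 to -0.028, Cox4i1 to -0.018, Atp5a1 to -0.011, Cox4i2 to -0.052, Cox7a2l to -0.058 and Atp5g2 to -0.037. Library totals turned Cox6b2 to 0.014 and Tfb2m to 0.0017, log2(FPKM + 0.1) Cox6b2 to 0.13, Cox4i2 to -0.012 and Tfb2m to 0.0013, log2(FPKM + 1), with or without a filter, Cox6b2 to 0.10 and Tfb2m to 0.0011, and the replicate block Cox6b2 to 0.11 and Cox4i2 to -0.033. Leaving out 1 pool gave -0.050 to 0.082 for Sdhc, -0.022 to 0.12 for Uqcr11, -0.038 to 0.091 for Cox7a2l, -0.74 to 0.56 for ATP6, -0.89 to 0.12 for ATP8, -2.44 to 0.14 for Cox8b, -0.36 to 0.67 for Cox6b2, -0.36 to 0.23 for Cox4i2, -0.43 to 0.23 for Cox7a1, -0.038 to 0.10 for Ppargc1b, -0.19 to 0.050 for Tfb1m, -0.060 to 0.032 for Tfb2m, -0.038 to 0.48 for Ndufs6b, -0.0076 to 0.050 for Atp5a1 and -0.29 to 0.62 for COX3. With 3 pools per group, the standard errors of 0.060 to 0.12 limit what can be seen in abundant genes, and differences smaller than their intervals are not resolved.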
